A study of Nothobranchius furzeri with 15 samples.

Results

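In the livers of male turquoise killifish given rotenone at 15 pM, 244 genes were expressed below every library of the other groups. Those groups were the control and a 10-fold higher dose. The 244 genes had ranges that overlapped at least in part between those groups. They were chosen from 15834 genes with enough counts, of 26739 gene identifiers in all, and from 13673 of those whose mean over 15 libraries lay between 1 and 1000 CPM (a gene's counts relative to its library's total, with totals scaled by TMM factors). A gene was taken where the highest of the 5 libraries of 15 pM lay below the lowest of the 10 libraries of DMSO and 150 pM, and where the CPM ranges of DMSO and 150 pM overlapped. The members were thus chosen by the measured CPM values of all 15 libraries. The differences of 15 pM from both other groups, and the overlap of those groups, are therefore descriptions and carry no test. Overlap can rest on a single library, so it does not mean that DMSO and 150 pM were alike.

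The RNA came from livers of the annual fish Nothobranchius furzeri, all males of the inbred GRZ strain at 9 weeks of age. The 3 groups of 5 libraries were given DMSO, the solvent control, or rotenone at 15 pM or at 150 pM. Libraries carry here the number of the submitters' titles, 1 to 5 for DMSO and for 15 pM and 8 to 12 for 150 pM. No source used here gives the route and length of exposure, the number of fish per library or a batch, so the spread between libraries may be partly technical. Total counts ranged from 22185038 to 35672589 per library. Over the genes between 1 and 1000 CPM, 15 pM library 4 correlated least with its group, with a median r of 0.788 over log2 CPM against 0.912 to 0.961 for the other 14 libraries, and 150 pM libraries 8 and 10 were both at least 2-fold above the other 3 of their group in 1.94% of these genes.

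Rotenone blocks complex I, the first enzyme of the mitochondrial respiratory chain, which passes electrons from NADH to ubiquinone and pumps protons. The liver carries much of the body's oxidative metabolism, and a block of complex I is known to slow the oxidation of NADH and to change the production of reactive oxygen species. The files give identifiers without gene names, and 0 of them matched the 38438 genes of the reference table for the assembly NfurGRZ-RIMD1. The roles of the 244 genes, and the liver's own markers, could therefore not be looked up. In bulk tissue, fewer cells of a type and less RNA per cell cannot be told apart.

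Of the 15834 genes tested, 337 (2.13%) had all 5 libraries of 15 pM below all 10 others, and 310 of these lay in the window of 1 to 1000 CPM. The overlap condition removed 66 of the 310. Among the removed genes, 65 had 150 pM wholly above DMSO and 1 had DMSO wholly above 150 pM. The 244 that stayed are 1.54% of the genes tested. The mirrored rules gave sets of other sizes: 87 genes were high only at 15 pM, 186 low only at 150 pM, 287 high only at 150 pM, 26 low only in DMSO and 115 high only in DMSO. The set low only at 15 pM was thus larger than the set high only at that dose. The sizes share libraries and were not tested against each other.

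**Figure D1:**
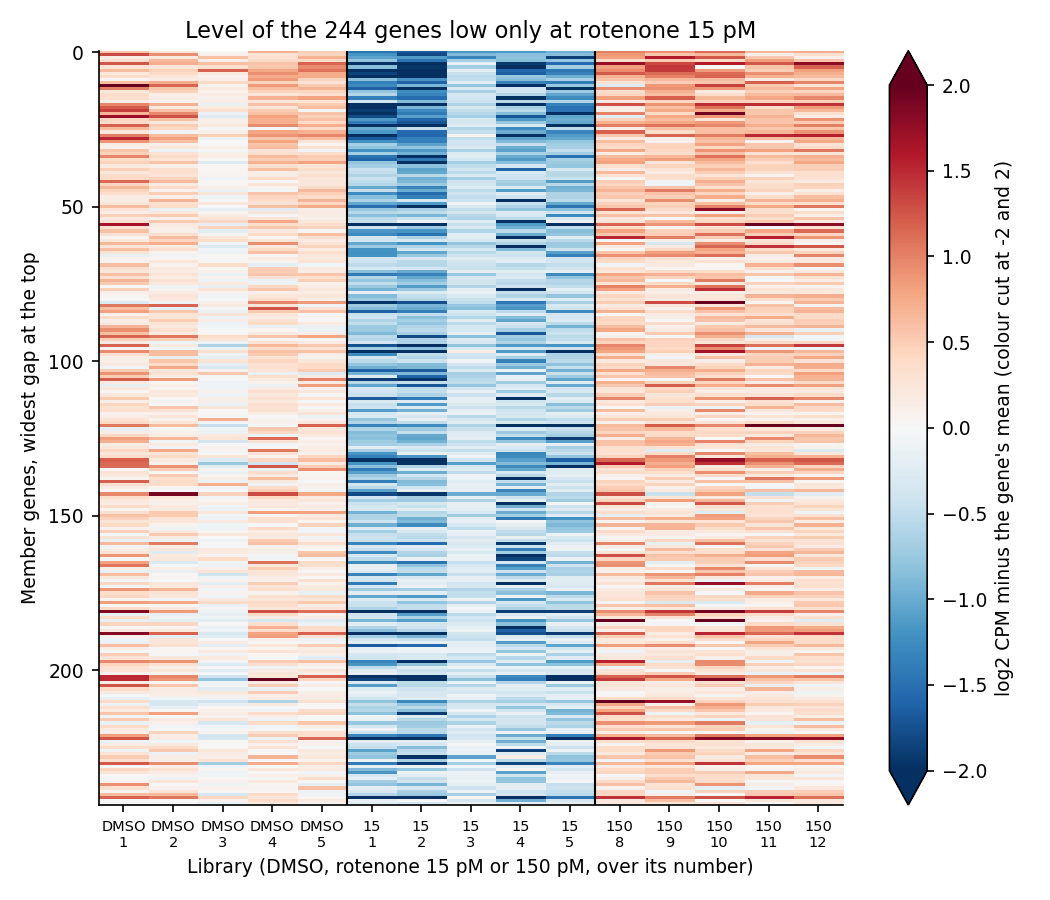
Level of each of the 244 genes (rows, widest gap at the top) in the 15 libraries (columns, by group and number). Colour gives log2 CPM minus the gene's mean over the 15 libraries, cut at -2 and 2. The blue block is the 15 pM group, palest in its library 3, and the DMSO column nearest to it in colour is library 3.

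The members were mostly of low and middle abundance. Their median level was 9.66 CPM, against 9.57 CPM over the 13673 genes of the window and 7.52 CPM over all genes tested. Between 1 and 10 CPM lay 127 members (1.81% of the 7022 genes there), between 10 and 100 CPM lay 112 (1.90% of 5908), and between 100 and 1000 CPM lay 5 (0.673% of 743). Scaled by gene length as well, the median member stood at 2.26 CPM per kilobase and the median gene of the window at 3.67. By CPM the members resembled the window, and per length they were lower.

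Of a library's counts, the 244 genes together held 0.541 ± 0.0569% with DMSO, 0.321 ± 0.0356% with the lower dose and 0.621 ± 0.0859% with the higher one (SD, n = 5 each). Their summed level in the DMSO libraries was 5391, 5283, 4730, 5734 and 5331 CPM in libraries 1 to 5. In the libraries of 15 pM it was 3197, 3000, 3718, 3049 and 3467 CPM in libraries 1 to 5. At 150 pM it was 6078, 6521, 6481, 5933 and 5748 CPM in libraries 8 to 12. The libraries of 15 pM were the lowest, as the rule fixes. The rule does not fix the order of the other groups, but it used their values, so the choice of the members can shape it. There, the lowest sum at 150 pM (5748 CPM) was just above the highest in DMSO (5734 CPM). As shares of the raw counts, with no TMM factors, the groups overlapped: 0.619% and 0.569% in DMSO libraries 1 and 4 lay above 0.536% and 0.532% in 150 pM libraries 11 and 12.

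The size of the difference varied widely among the members. The ratio of the DMSO mean to the 15 pM mean ran from 1.15 to 7.34 with a median of 1.77, and the ratio of the 150 pM mean to the 15 pM mean ran from 1.21 to 9.22 with a median of 2.04. The DMSO mean was at least 2-fold above the 15 pM mean in 89 members, the 150 pM mean in 127, and both in 84. Low genes had the larger ratios: the median ratio of DMSO to 15 pM was 2.03 between 1 and 10 CPM and 1.59 between 10 and 100 CPM. It was 1.42 in the 5 members between 100 and 1000 CPM. The ratio of 150 pM to 15 pM had medians of 2.44, 1.77 and 1.83 in these classes. The rule asks for separate ranges, so the choice of the members shapes these ratios and nothing is read from their order. As fitted by edgeR, the median log2 fold change of the members was -0.83 for 15 pM against DMSO and -1.03 for 15 pM against 150 pM, where all genes tested had medians of 0.027 and 0.025.

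By edgeR's quasi-likelihood test over all genes (Benjamini-Hochberg adjusted p under 0.05), 168 of the 244 were called lower at 15 pM than in DMSO, where 3.69% of all genes tested were called lower. Against 150 pM, 238 were called lower, where 9.14% of all genes were. Both calls were made for 165 members, and neither for 3. The rule used both contrasts, so nothing is read from these shares. The number called against DMSO depended on single libraries, as did the number over all genes, which was 584 with all libraries. Leaving out DMSO library 1, 2 or 5 gave 101, 105 and 111 members of 255, 231 and 284 genes called lower. Leaving out 15 pM library 1 or 2 gave 95 and 107 members of 213 and 253 genes. Other libraries mattered less: 144 and 126 members of 529 and 396 genes were called without DMSO library 3 or 4. Without 15 pM library 3, 4 or 5, 157, 174 and 119 members of 518, 1084 and 321 genes were called. With any library of DMSO or 15 pM left out, 225 to 237 members had an unadjusted p under 0.05 in this test. With the 10 libraries of DMSO and 15 pM alone, the number called was 88 of 236.

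The gene with the widest gap was Nfu_g_1_007312, whose lowest library outside 15 pM stood 1.95-fold above its highest library at 15 pM. In DMSO it was at 38.7, 31.8, 26.4, 43.3 and 36.8 CPM in libraries 1 to 5. At 15 pM it was at 9.61, 8.13, 11.7, 11.96 and 13.6 CPM in libraries 1 to 5. At 150 pM it was at 53.3, 50.1, 58.0, 41.98 and 43.6 CPM in libraries 8 to 12. All 5 libraries of 15 pM were low, from 8.13 to 13.6 CPM. Of the 5 libraries of 150 pM, 4 lay above the highest DMSO library, and library 11 overlapped with DMSO. The means were 35.4 ± 6.52, 11.01 ± 2.14 and 49.4 ± 6.68 CPM (SD, n = 5 each). The fitted log2 fold change was -1.69 (SE 0.17) against DMSO and -2.17 (SE 0.17) against 150 pM. At 14089 bases, this gene was also among the long ones, and its counts at 15 pM ranged from 221 to 371 per library.

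The most abundant member, Nfu_g_1_011771, had a narrow gap. In DMSO it was at 493, 485, 484, 704 and 578 CPM in libraries 1 to 5. At 15 pM it was at 405, 253, 372, 436 and 469 CPM in the same order. At 150 pM it was at 857, 1083, 741, 708 and 581 CPM in libraries 8 to 12. Library 5 of 15 pM stood just under libraries 2 and 3 of DMSO, a gap of 1.03-fold. The means were 549 ± 95.4, 387 ± 83.0 and 794 ± 189 CPM (SD, n = 5 each). The fitted log2 fold change was -0.50 (SE 0.20) against DMSO and -1.04 (SE 0.20) against 150 pM. Against DMSO this gene did not pass the threshold although the ranges were apart (edgeR adjusted p = 0.181).

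**Figure D2:**
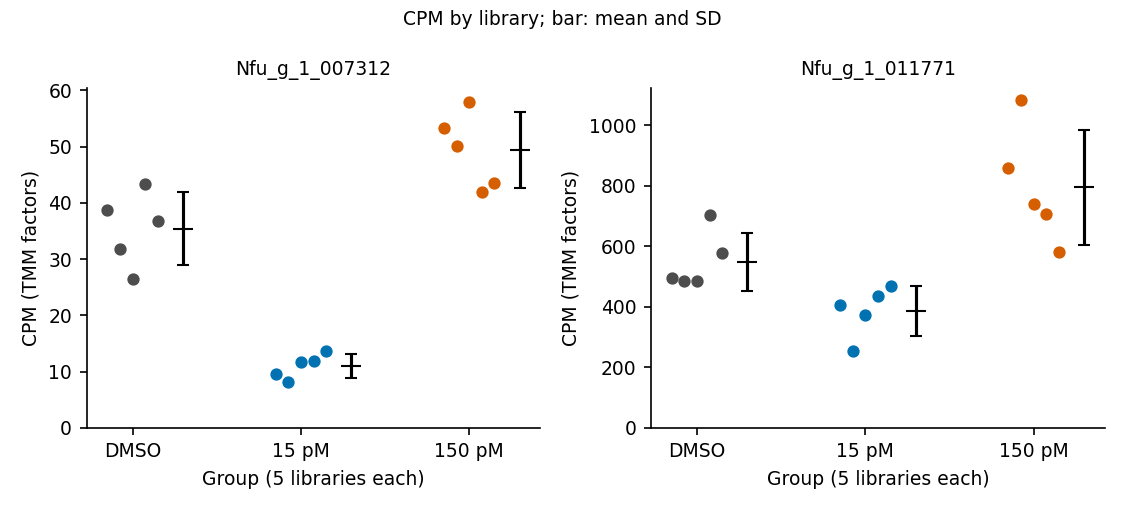
CPM of the member with the widest gap (Nfu_g_1_007312) and of the most abundant member (Nfu_g_1_011771) in each library. Points are libraries and bars show the mean and SD of 5; the first gene's 15 pM libraries reach 13.6 CPM at most against 26.4 CPM or more elsewhere, and the second gene's reach 469 CPM against 484 CPM or more.

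Other members show the range of shapes. The member with the largest ratio of DMSO to 15 pM, the least abundant of all, was at 2.20, 1.08, 0.548, 1.48 and 1.31 CPM in DMSO libraries 1 to 5. At 15 pM it was at 0.0766, 0, 0.530, 0.148 and 0.146 CPM, so library 3 stood almost at the lowest DMSO library while library 2 had no read. Only 2 members had a count of 0 in a 15 pM library, and 0 had one elsewhere. The smallest count in a 15 pM library had a median of 97.5 over the members, and it was under 10 in 20 of them.

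At the other end, the member with the smallest ratio of DMSO to 15 pM was at 33.6, 36.8, 31.9, 33.7 and 36.9 CPM in DMSO and at 29.5, 31.0, 31.6, 29.6 and 28.8 CPM at 15 pM. Its group means were 34.6 ± 2.19 and 30.1 ± 1.15 CPM (SD, n = 5 each), and the nearest libraries of the groups were less than 1 CPM apart. The second most abundant member was at 247, 255, 248, 324 and 248 CPM in DMSO, and at 207, 158, 193, 108 and 145 CPM at 15 pM. At 150 pM it ranged from 217 to 443 CPM, the highest in library 10.

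The rule's threshold cut through a continuous range. The gap, the ratio of the lowest library outside 15 pM to the highest library at 15 pM, had a median of 1.11 over the members. It was under 10% in 118 members, at least 25% in 47 and at least 50% in 9. The 3 members just inside had highest 15 pM values of 14.8, 11.9974 and 1.51 CPM against lowest other values that were 0.000277%, 0.0459% and 0.106% higher. The 3 genes just outside had 11.0139, 20.1513 and 2.96303 CPM against 11.0121, 20.1411 and 2.96117 CPM. A further 217 genes of the window met the overlap condition and missed the gap by 10% or less, nearly as many as the members.

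Counting error alone was as large as many of these gaps. The library at the upper edge of 15 pM had a median of 185 counts, and the library at the lower edge of the others a median of 218.5. In 70 members the gap between these libraries exceeded 2 counting standard errors of their log ratio, and in 174 it did not. This covers counting error only, and it concerns the edge libraries, not the group means.

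A single library per group often set the edge. At 15 pM, library 3 was the highest of its group in 126 members (51.6%), whereas it was the highest in 17.01% of all genes of the window. DMSO library 3 was the lowest of the 10 other libraries in 118 members (48.4%), against 8.81% of the window. Both held at once in 67 members. Without 15 pM library 3 the rule took 389 genes, 224 of them among the 244. Without 15 pM library 4 it took 368, with 211 shared, and without both libraries numbered 3 it took 434, with 209 shared. Each time the filter, the TMM factors and the mean CPM were computed anew, so the shared numbers also reflect that step. Fewer libraries also make separate ranges easier to reach, so a larger set says little about the library left out.

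Inside the groups, many members deviated in 1 direction in a few libraries. In DMSO library 3, 33 of 244 members (13.5%) lay above their group mean, against 48.2% of the window, and their median deviation was -0.20 on the log2 scale. In 15 pM library 3, 220 members (90.2%) lay above their group mean, against 52.4% of the window, with a median deviation of 0.27. In 15 pM library 2, 30.3% did, with a median deviation of -0.14. At 150 pM the 5 libraries held between 43.0% and 59.8% of the members above the mean, against 44.4% to 56.0% of the window. Members and window differed most in library 10 (59.8% against 51.0%) and library 8 (48.4% against 56.0%). These shifts were smaller than those in the libraries numbered 3. Over all 15 libraries, the first component of the deviations from group means held 26.2% of their scaled variance in the members and 34.7% in 5749 other genes of like abundance. The median correlation of these deviations between pairs of genes was 0.18 over the members and 0.0089 over the 5749 others. These measures thus ranked the lists differently, and neither was tested. The members, unlike the others, were chosen by these same library values. The choice can therefore shape both measures and the shares above the group means, and nothing is read from them.

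**Figure D3:**
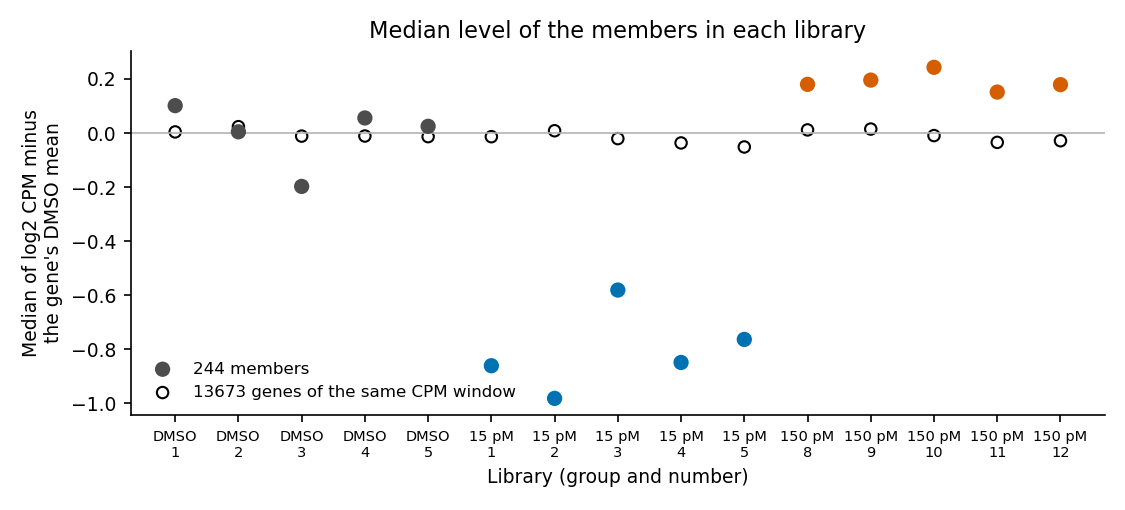
Median over genes of log2 CPM minus the gene's DMSO mean, for the 244 members (filled) and the 13673 genes of the window (open), in each library. Members lie between -0.98 and -0.58 at 15 pM and between 0.15 and 0.24 at 150 pM, and open points stay between -0.052 and 0.024.

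Relative to the DMSO mean, the median member stood at -0.86, -0.98, -0.58, -0.85 and -0.76 on the log2 scale in 15 pM libraries 1 to 5. The median gene of the window stayed between -0.052 and 0.0084 in those libraries. At 150 pM the median member stood at 0.18, 0.20, 0.24, 0.15 and 0.18 in libraries 8 to 12, and the window between -0.035 and 0.015. The median member was thus slightly above the DMSO mean in each library of 150 pM, among genes chosen with these values.

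Gene by gene, the 150 pM mean was above the DMSO mean in 200 of the 244 members (82.0%), where 50.9% of all genes tested had a higher mean. The rule used the values of both groups, so the choice of the members can shape this share and nothing is read from it. The ratio of the 150 pM mean to the DMSO mean had a median of 1.15. It was above 1.2 in 97 members, between 0.8 and 1.2 in 138 and under 0.8 in 9. These bounds are not equal folds up and down, and no share over all genes was taken, so the counts are not compared. The rule, by requiring overlap, removed 65 genes whose 150 pM libraries all lay above DMSO. Those 65 had median log2 fold changes of -0.93 at 15 pM and 0.61 at 150 pM, both against DMSO. By the rule, only the overlap condition set them apart from the members, whose medians were -0.83 and 0.20.

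In the edgeR test of 150 pM against DMSO, 3 members were called higher, where 2.13% of all genes were, and 0 lower, where 3.52% were. At an unadjusted p under 0.05 the number in either direction was 41 (16.8% of the members), where 22.1% of all genes were. Limma voom called 3, where 5.32% of all genes were called, and DESeq2 16 (6.56%), where 11.9% were. The rule asked these groups to overlap, which leaves out genes with separate ranges, so nothing is read from these shares. Of the 65 genes removed with 150 pM wholly above DMSO, edgeR called 17 at 150 pM against DMSO. One of the 3 members called by edgeR was carried by libraries 8 and 10, at 28.0 and 40.5 CPM. It was at 4.70, 4.97 and 4.07 CPM in libraries 9, 11 and 12 and at 3.62 to 4.20 CPM in DMSO. Another was at 6.02 to 11.8 CPM against 4.90 to 6.36 CPM in DMSO, and 4 of its 5 libraries lay above all of DMSO. The third was at 2.79 to 4.67 CPM against 2.05 to 2.88 CPM, with the same number of libraries above. Over all genes, edgeR called 896 in either direction with all libraries. Without DMSO library 2 or 3 or 150 pM library 8 or 10, the members called were 0, of 315, 597, 629 and 529 genes. The number was 1 without DMSO library 4 or 5 or 15 pM library 1, of 620, 555 and 781 genes. Without 15 pM library 4 it was 10, of 1942 genes.

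The member with the smallest ratio of 150 pM to DMSO showed the other shape. It was at 13.9, 26.7, 9.87, 17.7 and 12.2 CPM in DMSO libraries 1 to 5, and at 2.03, 1.84, 3.59, 3.56 and 4.79 CPM at 15 pM. At 150 pM it was at 17.6, 5.28, 12.6, 5.15 and 6.10 CPM in libraries 8 to 12. Libraries 8 and 10 stood inside the DMSO range, and the other 3 lay between it and the 15 pM libraries.

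The libraries that stood apart in the series were compared over the members. At 150 pM, libraries 8 and 10 were both at least 2-fold above the other 3 in 2 members (0.820%), where the window had the 1.94% given above. At 15 pM, library 4 was at least 2-fold below the lowest of the other 4 in 14 members (5.74%), against 9.77% of the window. Without these 3 libraries, and with filter and TMM factors computed anew, the rule took 336 genes, 171 of them among the 244. Of the 244, edgeR then called 172 lower than DMSO, of 1117 genes called lower in all. It called 202 lower than 150 pM, of 1034 genes.

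Length, which the rule did not use, was longer in most members than in the window, a description with no test. The lengths by which the authors divided their RPKM values could be recovered for all 244. Their median was 5095 bases, against 2812 over all genes tested and 2913 over the window, and 172 members (70.5%) were longer than the window's median. The window was divided by length into 4 classes of equal size. Members made up 0.643% of the shortest class, 1.46% and 1.43% of the middle ones, and 3.60% of the longest, which began at 5009 bases and held 123 members. The set high only at 150 pM had 43, 62, 58 and 124 genes in these classes, from the shortest. The set high only at 15 pM had 32, 27, 17 and 11. The 65 genes removed with 150 pM wholly above DMSO had a median of 4533 bases. A surplus of long genes was thus not particular to the members. Among members of at least 10 CPM the median length was 7362 bases, where all genes of at least 10 CPM had a median of 3357.

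Lengths also went with the libraries over all 15834 genes. Each gene's log2 CPM in a library, relative to its mean over libraries, was correlated with length. Spearman's rho was -0.14, -0.17, -0.083, -0.087 and -0.011 in 15 pM libraries 1 to 5. It was 0.016, 0.0096, -0.097, 0.068 and 0.0059 in DMSO libraries 1 to 5, and 0.14, 0.032, 0.13, 0.13 and 0.061 in 150 pM libraries 8 to 12. DMSO library 3, the lowest of its group in the members, was thus also the lowest of its group in this measure, while 15 pM library 3, the highest of its group in the members, was second highest there. The part of this trend in the members' difference was not tested.

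Since the rule chose low genes, members of every length class had to be lower at 15 pM, and their medians say nothing on length. From the shortest class to the longest, with 22, 50, 49 and 123 members, the median log2 fold change of the members against DMSO was -0.92, -1.26, -0.94 and -0.71. All genes of these classes had 0.089, 0.067, 0.045 and -0.094. With the trend of each library with length taken out, the rule took 158 genes, of which 146 were among the 244, and their median length was 3154 bases. Taking out the trend by itself shifts the lengths of the genes that pass.

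**Figure D4:**
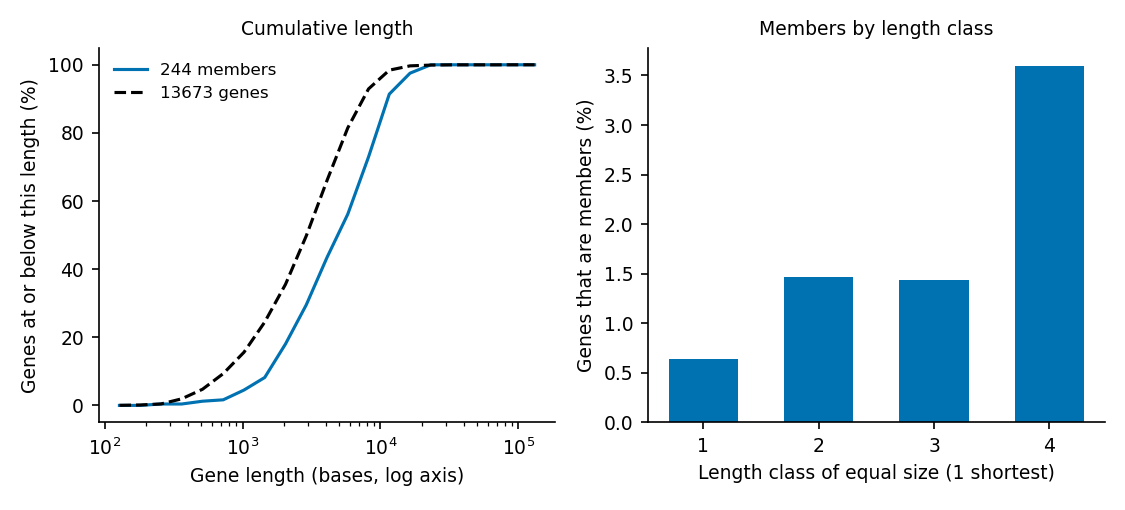
Left, share of genes at or below each length (log axis) for the 244 members and the 13673 genes of the window. Right, share of each of the 4 length classes of the window that were members, which was 0.643% in the shortest and 3.60% in the longest.

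Inside the groups the spread of the members was set beside that of other genes of their abundance. The median SD of log2 CPM was 0.21, 0.32 and 0.22 over the members in DMSO, 15 pM and 150 pM. Between the members' abundance quartiles, the 122 members had 0.20, 0.31 and 0.22, and the 5749 other genes had 0.21, 0.37 and 0.26. A small spread makes separate ranges easier to reach, so the lower values are no finding about the genes. Without 15 pM library 4 the members' median SD at 15 pM was 0.26.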

How the data were processed

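Liver RNA of 15 libraries in 3 groups of 5 was analysed. Per the labels' protocols, the TruSeq RNA kit v2 was used, a kit without strand information. The tools featureCounts 1.4.6-p4, STAR 2.4.1d and CASAVA 1.8.2 are named, per the submitters' processing notes. Genome build, annotation and the handling of multi-mapping reads are not given in the sources read, so values of near-identical or overlapping genes are uncertain. The authors deposited whole-number counts per gene, which were used for all results. The deposited RPKM values had been divided by library totals taken in turn down the rows: over 105783 values this gave 1 length per gene within 0.2% for 100%, and the library's own total for 7.54%. They served to recover lengths and as an alternative.

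Genes were kept by filterByExpr (minimum count 10), which left out 10905 genes and kept 99.9% of the counts. CPM used TMM factors, and log2 CPM a prior count of 0.5. The fit was edgeR 4.0.16 in R 4.3.3 (quasi-likelihood, two-sided, all 15 libraries, 1 mean per group), with SE taken from the fold change and its F statistic. It was also run on simulated data, and the outcome is not given here. Alternatives used limma 3.58.1 and DESeq2 1.42.0. The rule for named genes, where identifiers carry no names, prints the widest gap and the most abundant member; other members were picked for their shape after their values were seen. The members and the rule were chosen with earlier results of these data known. Counts of 30 pairs of libraries within groups differed by 46.7 to 853 times sampling noise, so none was counted as a copy. Leaving out both libraries numbered 3, and 150 pM libraries 8 and 10 alone, were added after seeing the data.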

Additional observations from a re-analysis of the deposited data

How the results depend on the processing

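The number of members was within 1.5 times 244 under other scalings, other filters and without the window or the overlap condition. It was 47 and 9 with gaps of at least 25% and 50%, and 158 with length trends removed. It was 434 without both libraries numbered 3, and 201 to 389 with any single library left out. Where libraries were left out, the filter, the TMM factors and the mean CPM were computed anew. Membership changed as well as the number: library totals in place of TMM gave 327 genes with 191 shared, and the deposited RPKM 249 with 149 shared. Most deposited RPKM values had not been divided by their library's own total, so the 149 does not show dependence on a valid scaling. RLE factors gave 197 genes, of which 195 were members. With 1 library left out, calls of the members against DMSO ranged from 95 to 174, of 213 to 1084 genes called lower. They were 88 with the 10 libraries alone, of 236 genes. Calls against 150 pM ranged from 214 to 234 with 1 library left out, of 986 to 1527 genes called lower. Under the other alternatives they ranged from 197 to 241, of 839 to 1792 genes. Calls of members at 150 pM against DMSO were 0 of 511 genes called with library totals and 1 of 867 with no filter. They were 6 of 1812 with the 10 libraries alone, and 6 of 1362 without 15 pM library 4 and 150 pM libraries 8 and 10. DESeq2 gave 16 of 1859. With 1 library left out they were 0 to 10, of 315 to 1942 genes. The median length was 7362 bases among members of at least 10 CPM. The members' median SD at 15 pM was 0.351 with library totals and 0.264 without 15 pM library 4.

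DMSO and 15 pM share the numbers 1 to 5, and no source used here says whether a number marks a pair. Deviations of same-numbered libraries had r of -0.0054, 0.0099, 0.11, -0.069 and 0.069 for numbers 1 to 5. Pairs of unlike number ran from -0.30 (DMSO 3 with 15 pM 4) to 0.34 (DMSO 3 with 15 pM 2). With 5 same-numbered pairs, these values cannot show whether a pairing is present or absent. The replicate block was fitted to the 10 libraries of DMSO and 15 pM alone. With it, edgeR called 0 members lower than DMSO and 0 genes in all, with 217 members at an unadjusted p under 0.05. Without the block, the same 10 libraries gave 88 members of 236 genes, with 232 members at an unadjusted p under 0.05. DESeq2 and limma voom, over all 15 libraries and without a block, called 196 and 174 members, of 949 and 706 genes called lower. The log2 fold change of Nfu_g_1_007312 against DMSO ran from -1.76 to -1.56 over 24 alternatives and missed the threshold with the block alone (adjusted p = 0.142, edgeR). The causes of these shifts were not tested.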
